A study of Mus musculus with 8 samples.

Results

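The 31 genes described here are genes of T cells and natural killer (NK) cells, taken by symbol from a fixed list, and all 31 were found among the 23212 gene symbols of the count files. RNA from unfractionated perigonadal fat was sequenced in 8 mice of the C57BL/6 strain, of which 4 were wild type and 4 carried an adipocyte-specific gene knockout. All of these mice, wild type and knockout alike, were 20 weeks old and had eaten a 45% fat diet for 12 weeks from 8 weeks of age, and the design text calls the genotypes matched for age and weight. The promoter that drives the adipocyte deletion is not given in the sources used here, and only whole tissue was measured, without a sort for lymphocytes.

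T cells recognise peptides through a T cell receptor that signals through the CD3 chains and the zeta chain, with CD4 or CD8 as coreceptor and the kinases LCK and ZAP-70 as the first signalling steps. NK cells lack that receptor, carry receptors such as NKp46 (Ncr1) and CD94 (Klrd1), and kill with granzymes and perforin, which they share with CD8 T cells. In obese visceral fat of mice, CD8 T cells, T helper cells producing interferon gamma and NK cells are known to accumulate beside macrophages, while lean visceral fat is known for its regulatory T cells.

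Libraries held 46444435 to 51431956 counts, and levels are given as CPM, the usual scaling of each count by its library total, here adjusted by TMM. Of the 31 genes 30 passed the low-count filter, and Ifng did not. The T cell markers Cd3e, Cd3d and Cd3g were detected in all 8 libraries, at 16 to 119 counts, and the NK marker Ncr1 at 5 to 46 counts, so the counting error of these genes was not small. In whole tissue, fewer cells of a type and less RNA per cell cannot be told apart. Wild-type library 3 and knockout library 2 were the top 2 for 4 of 6 epithelial markers, Epcam, Cdh1, Foxj1 and Cuzd1, but not for the keratins Krt8 and Krt18, which mesothelium also makes, with Foxj1, which controls the formation of motile cilia, at 7.97 CPM in the former, 26.1 CPM in the latter and no more than 0.287 CPM elsewhere.

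No T or NK cell gene passed the test between the genotypes. In the edgeR quasi-likelihood test with Benjamini-Hochberg adjustment over all 14493 tested genes, 0 of the 30 tested members passed an adjusted p of 0.05, where 0.0138% of all tested genes did, and each of the 30 had an adjusted p of 0.9999. At an unadjusted p under 0.05 there were also 0 members, against 2.23% of all tested genes, and 0 of 30 does not stand apart from these shares. DESeq2 called 0 of 30 members and 0.117% of all tested genes, limma voom called 0 of 30 members and 0% of all tested genes, and each had 0 members at an unadjusted p under 0.05. DESeq2 gave no adjusted p for some members, among them Cd8a, Cd8b1, Zap70, Cd5, Cd28, Icos and Ctla4, so it could not call these. Its share of 0.117% was taken over all 14493 tested genes, with or without an adjusted p. The groups overlapped for all 31 members. They did not overlap for 1.44% of tested genes, and 0 of 31 does not stand apart from that share. Of the 30 tested members 27 had a log2 fold change (knockout minus wild type) above 0, against 53.1% of all tested genes, with a median of 0.41 against 0.011. The median depended on single mice. Without knockout library 4 it was 0.075, with 21 of 30 above 0. It was 0.21 without wild-type library 2, 0.62 without wild-type library 3, 0.62 without knockout library 1 and 0.74 once both wild-type library 3 and knockout library 2 were left out.

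**Figure D1:**
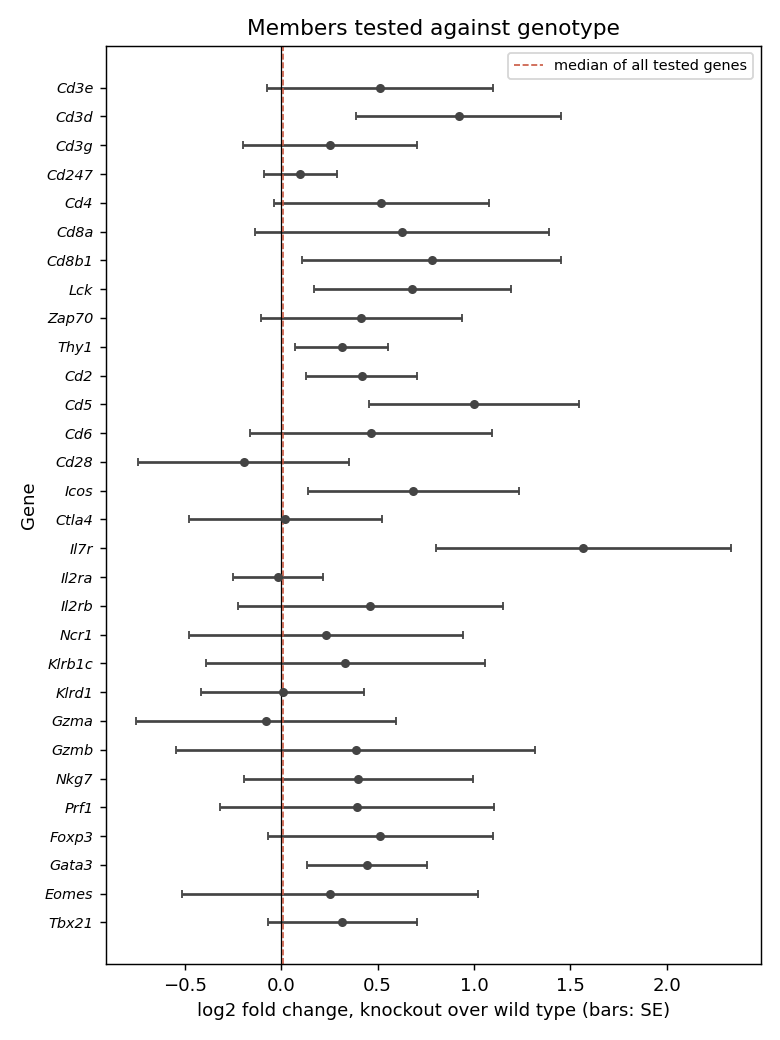
The log2 fold change of each tested member, knockout over wild type (horizontal axis), with the standard error as bars, and the median of all tested genes as a dashed line. Of the 30 genes 27 lie above 0, from -0.20 for Cd28 to 1.57 for Il7r, and none passed the adjusted threshold.

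The CD3 chains carry the signal of the T cell receptor into the cell. Cd3e was at 0.681, 0.314, 0.779 and 1.17 CPM for wild types 1 to 4, against 0.317, 0.659, 1.35 and 1.88 CPM for knockouts 1 to 4. Cd3d was at 0.557, 0.353, 0.799 and 1.01 CPM across the wild types, against 0.495, 0.823, 1.39 and 2.44 CPM across the knockouts, libraries 1 to 4 each. Cd3g stood at 0.990, 0.765, 1.09 and 1.09 CPM across the wild types, against 0.475, 0.741, 1.37 and 2.11 CPM across the knockouts. In all of these genes knockout libraries 3 and 4 were the highest of the 8, while knockout library 1 was at or near the bottom beside wild-type library 2, so that the knockout group enclosed the wild-type values at its top and, for Cd3g, at both ends. The log2 fold changes were 0.51 (SE 0.59) for Cd3e, 0.92 (SE 0.53) for Cd3d and 0.25 (SE 0.45) for Cd3g, and that of Cd3g turned to -0.20 without knockout library 4.

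The promoters of the 3 CD3 chains are shown because the genes lie side by side on chromosome 9 and their levels followed the same order of mice in large part. That order was not particular to this locus. Lck on chromosome 4 and Zap70 on chromosome 1 were also highest in knockout libraries 4 and 3 and lowest in knockout library 1 and wild-type library 2. The start sites of Cd3d (plus strand) and Cd3g (minus strand) lie 1355 bp apart and point away from each other, and Cd3e lies beyond Cd3d on the minus strand. In mm10 coordinates of chromosome 9, Cd3g runs from 44969572 to 44980431, Cd3d from 44981786 to 44987052 and Cd3e from 44998743 to 45009590. Il7r (chromosome 15, 9506159 to 9529876, minus strand), whose levels followed another order of mice, is shown for contrast. The sequences come from RefSeq (GRCm38.p6) and run 5′ to 3′ on the strand of the gene, ending at the start site or, for Cd3e, 16 bases before it, with bases of annotated exons left out. Capitals mark exact matches on either strand to short cores. The core searched for ETS factors was AGGAAG. The core searched for TCF and LEF factors was CTTTGA. The core searched for GATA factors was AGATAA. None of these cores overlapped another in the stretches shown.
Cd3d, chr9:44981536-44981785, plus strand: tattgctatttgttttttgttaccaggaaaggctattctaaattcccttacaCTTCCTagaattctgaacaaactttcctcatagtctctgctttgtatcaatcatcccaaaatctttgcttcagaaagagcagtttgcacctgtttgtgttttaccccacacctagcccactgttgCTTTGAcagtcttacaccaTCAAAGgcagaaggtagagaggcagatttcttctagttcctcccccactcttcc
Cd3g, chr9:44980432-44980681, minus strand: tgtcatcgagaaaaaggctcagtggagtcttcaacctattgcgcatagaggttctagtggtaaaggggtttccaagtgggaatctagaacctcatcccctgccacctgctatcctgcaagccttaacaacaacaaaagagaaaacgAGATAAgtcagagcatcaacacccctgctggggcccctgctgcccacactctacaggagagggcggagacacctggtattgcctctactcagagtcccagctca
Cd3e, chr9:45009628-45009861, minus strand: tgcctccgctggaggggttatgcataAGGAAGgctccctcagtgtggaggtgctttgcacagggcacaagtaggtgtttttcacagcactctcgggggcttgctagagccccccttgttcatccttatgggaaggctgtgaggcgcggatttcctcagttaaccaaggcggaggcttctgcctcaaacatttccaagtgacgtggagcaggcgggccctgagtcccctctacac
Il7r, chr15:9529877-9530040, minus strand: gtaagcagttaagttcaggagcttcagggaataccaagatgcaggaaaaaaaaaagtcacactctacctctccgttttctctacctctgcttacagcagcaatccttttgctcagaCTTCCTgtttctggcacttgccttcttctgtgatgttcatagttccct
The Cd3d stretch held 1 ETS and 2 TCF/LEF matches, the Cd3g stretch 1 GATA match, and the Cd3e and Il7r stretches 1 ETS match each. Over the 250 bases before the start site, the ETS core was found in 29.5% of all 32851 promoter windows, the TCF/LEF core in 13.8% and the GATA core in 9.99%. RefSeq windows were matched for 22 of the 31 members, 27 windows in all, of which 16 held the ETS core, 2 the TCF/LEF core and 2 the GATA core. A RUNX core, TGTGGT, was in 9 of the 27 member windows and in 14% of all windows. A T-box site, AGGTGTGA, was in 1 member window and in 1.12% of all windows. The TATA box, searched for as TATAAA, was in 2 member windows and in 12.4% of all windows. No core was shared by all 3 CD3 stretches, and a match is a description of the letters only.

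The zeta chain and the coreceptors complete the receptor. Cd247, which encodes the zeta chain and is also used by NK cell receptors, was at 5.98, 5.76, 9.16 and 7.73 CPM across the wild types, against 6.71, 8.34, 8.72 and 6.94 CPM across the knockouts, libraries 1 to 4. Unlike the CD3 chains it hardly differed between mice, with the highest library 1.59 times the lowest against 6.00 times for Cd3e, and its exons share bases with those of Pou2f1, so its counts are less certain. Per length of exon, Cd247 stood at a mean of 1.61 CPM per kb over the 8 libraries, above Cd3e at 0.623, Cd3d at 0.739 and Cd3g at 1.05 CPM per kb.

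Cd4, the coreceptor of helper and regulatory T cells that is also found on some dendritic cells, was at 0.805, 0.353, 1.36 and 1.63 CPM across the wild types, against 0.732, 0.926, 1.56 and 2.74 CPM across the knockouts. Cd8a, the coreceptor chain of killer T cells, was at 0.227, 0.196, 0.682 and 0.293 CPM across the wild types, against 0.0594, 0.288, 0.779 and 1.04 CPM across the knockouts. Its partner chain Cd8b1 was at 0.227, 0.235, 0.292 and 0.251 CPM across the wild types, against 0.0594, 0.206, 0.758 and 0.716 CPM across the knockouts. Both CD8 chains rested on 3 counts in knockout library 1, with a 95% Poisson interval of 0.0122 to 0.174 CPM, and on 35 to 51 counts in knockout libraries 3 and 4. The spread of Cd8b1 within wild type was small (mean 0.252 ± 0.0290 CPM, SD, n = 4) and that within knockout wide (mean 0.435 ± 0.354 CPM, SD, n = 4). The log2 fold changes were 0.52 (SE 0.56) for Cd4, 0.63 (SE 0.76) for Cd8a and 0.78 (SE 0.67) for Cd8b1.

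**Figure D2:**
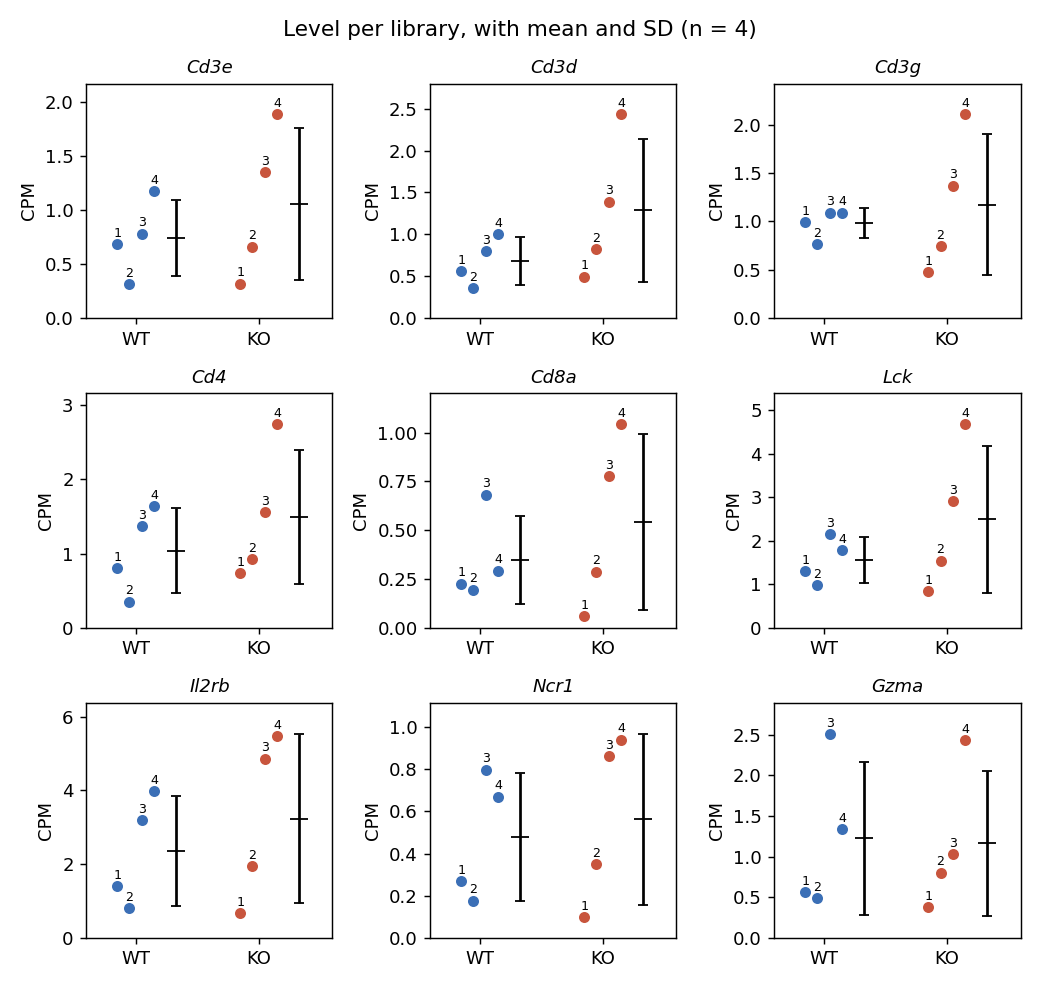
Level in CPM (vertical axis) of 9 T and NK cell genes in each library, wild type (WT) and knockout (KO), with numbered points for the libraries and the mean and SD beside them (n = 4 each). In each of the 9 panels knockout library 1 is the lowest and knockout library 4 the highest of the knockout group, and the groups overlap. The 9 genes were picked from the 31 members, and others differed. Among the knockouts, Thy1 and Ctla4 were highest in library 1, Klrb1c and Cd8b1 were highest in library 3, and Il7r was lowest in library 2.

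Lck, the kinase that phosphorylates the CD3 and zeta chains, was at 1.30, 0.980, 2.16 and 1.78 CPM across the wild types, against 0.851, 1.54, 2.91 and 4.69 CPM across the knockouts. Zap70, which is recruited to the phosphorylated chains, was at 0.495, 0.392, 0.935 and 0.985 CPM across the wild types, against 0.297, 0.823, 1.09 and 1.53 CPM across the knockouts. Both kinases were highest in knockout library 4 and lowest in knockout library 1, the order seen for Cd3g and Cd8a. Their log2 fold changes were 0.68 (SE 0.51) and 0.42 (SE 0.52).

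Of the surface receptors that tune adhesion and signal strength, Thy1 was at 17.9, 25.8, 24.9 and 16.3 CPM across the wild types, against 34.6, 17.3, 22.6 and 31 CPM across the knockouts. Thy1 marks mouse T cells but is also made by fibroblasts and progenitors of fat, and per length of exon it was the most abundant member, at a mean of 13.7 CPM per kb. Its highest library was knockout library 1, where the CD3 chains were low. Cd2, an adhesion receptor of T and NK cells, was at 3.18, 2.55, 3.60 and 4.57 CPM across the wild types, against 4.65, 3.02, 4 and 6.90 CPM across the knockouts. Cd5, a brake on receptor signalling that is also carried by some B cells, was at 0.309, 0.176, 0.409 and 0.482 CPM across the wild types, against 0.633, 0.226, 0.590 and 1.31 CPM across the knockouts. Cd6, a related receptor, was at 0.681, 0.353, 1.73 and 0.880 CPM across the wild types, against 0.910, 0.391, 1.18 and 2.56 CPM across the knockouts. Cd2 and Cd5 were highest in knockout library 4, followed by knockout library 1. The log2 fold changes were 0.31 (SE 0.24), 0.42 (SE 0.29), 1.00 (SE 0.55) and 0.46 (SE 0.63) for Thy1, Cd2, Cd5 and Cd6, and that of Cd6 turned to -0.15 without knockout library 4.

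Costimulation and checkpoint genes had fold changes on either side of 0, none of which passed the test. Cd28, which delivers the main costimulatory signal, was at 0.722, 0.275, 1.01 and 1.49 CPM across the wild types, against 0.376, 0.535, 1.20 and 0.941 CPM across the knockouts, and its log2 fold change of -0.20 (SE 0.55) was the lowest of the tested members. That value turned to 0.19 without wild-type library 4, which held the highest level. Icos, induced on activated T cells, was at 0.289, 0.118, 0.565 and 0.649 CPM across the wild types, against 0.356, 0.494, 0.863 and 0.900 CPM across the knockouts, with a log2 fold change of 0.69 (SE 0.55). Ctla4, the inhibitory receptor that is high on regulatory T cells, was at 0.268, 0.294, 0.623 and 0.251 CPM across the wild types, against 0.653, 0.185, 0.253 and 0.368 CPM across the knockouts. Ctla4 reached its highest levels in knockout library 1 and wild-type library 3, and its log2 fold change was 0.02 (SE 0.50).

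The cytokine receptor chains split into different patterns. Il7r, the receptor chain for interleukin 7 that sustains naive and memory T cells and innate lymphoid cells, was at 3.38, 4.35, 10.3 and 3.39 CPM across the wild types, against 19.1, 3.19, 4.51 and 36.8 CPM across the knockouts. Knockout library 4 stood far above the rest, knockout library 1 came next and then wild-type library 3, while knockout library 3 lay among the wild-type values and knockout library 2 was the lowest of all. The log2 fold change of 1.57 (SE 0.76) was the largest among the members and had the smallest unadjusted p, 0.0711 in edgeR, with values from 0.73 to 2.44 over the other settings. Il2rb, the chain that NK cells and memory CD8 T cells use for interleukin 2 and interleukin 15, was at 1.40, 0.804, 3.19 and 3.98 CPM across the wild types, against 0.673, 1.94, 4.86 and 5.46 CPM across the knockouts. It was lowest in knockout library 1 and highest in knockout library 4, with a log2 fold change of 0.46 (SE 0.69). Il2ra, the high-affinity interleukin 2 receptor chain of regulatory and activated T cells, was at 4.46, 3.90, 6.72 and 4.15 CPM across the wild types, against 4.37, 3.83, 4.63 and 6.16 CPM across the knockouts. Il2ra was nearly level across mice, with the highest library 1.76 times the lowest and a log2 fold change of -0.02 (SE 0.23).

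NK receptors were lowest in wild-type libraries 1 and 2 and knockout library 1. Ncr1, the activating receptor NKp46, was at 0.268, 0.176, 0.799 and 0.670 CPM across the wild types, against 0.0990, 0.350, 0.863 and 0.941 CPM across the knockouts. Klrb1c, the NK1.1 antigen of this strain, was at 0.392, 0.196, 1.38 and 1.49 CPM across the wild types, against 0.337, 0.659, 1.81 and 1.55 CPM across the knockouts. Klrb1c has close relatives in the same gene cluster, so reads shared with a relative may be misassigned. Klrd1, which encodes CD94, the partner of the NKG2 receptors, was at 0.660, 0.588, 1.68 and 1.40 CPM across the wild types, against 0.752, 0.885, 1.22 and 1.49 CPM across the knockouts. For Ncr1, Klrb1c and Klrd1, wild-type libraries 3 and 4 and knockout libraries 3 and 4 were the 4 highest, which puts 2 mice of each genotype on either side. The log2 fold changes were 0.23 (SE 0.71), 0.33 (SE 0.72) and 0.01 (SE 0.42) for Ncr1, Klrb1c and Klrd1, and without knockout library 3 they were -0.048, -0.025 and -0.053.

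Effector genes of killing were low in much the same mice. Nkg7, a protein of cytotoxic granules, was at 1.32, 0.686, 2.53 and 1.82 CPM across the wild types, against 0.693, 1.03, 2.76 and 3.93 CPM across the knockouts. Gzma, granzyme A, was at 0.557, 0.490, 2.51 and 1.34 CPM across the wild types, against 0.376, 0.803, 1.03 and 2.44 CPM across the knockouts. Gzmb, granzyme B, was at 0, 0.118, 0.409 and 0.545 CPM across the wild types, against 0.0792, 0.329, 0.505 and 0.491 CPM across the knockouts. The 0 for Gzmb in wild-type library 1 allows up to 3 counts, or 0.0619 CPM, as a one-sided floor, and up to 0.0761 CPM as the upper bound of the 95% Poisson interval, below the 2 highest Gzmb levels of either genotype. Prf1, the pore-forming perforin, was at 0.0825, 0.157, 0.701 and 0.419 CPM across the wild types, against 0.198, 0.206, 0.674 and 0.716 CPM across the knockouts. Wild-type library 3 held the highest Gzma and knockout library 4 the highest Nkg7 and Prf1, and wild-type libraries 1 and 2 and knockout library 1 were the lowest 3 for Gzma, Gzmb and Prf1. The log2 fold changes were 0.40 (SE 0.59), -0.08 (SE 0.68), 0.39 (SE 0.93) and 0.39 (SE 0.71) for Nkg7, Gzma, Gzmb and Prf1, and that of Gzma was 0.54 without wild-type library 3 and -0.75 without knockout library 4. Ifng, interferon gamma, had 3, 0, 9 and 5 counts in wild-type and 0, 1, 2 and 8 counts in knockout libraries 1 to 4, and a difference was not detectable at this depth (edgeR without a filter, log2 fold change -0.58, SE 1.28).

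Among the transcription factors, Foxp3, which defines regulatory T cells, was at 0.309, 0.314, 0.838 and 0.440 CPM across the wild types, against 0.732, 0.144, 0.821 and 1.02 CPM across the knockouts. Foxp3 shares exonic bases with 4930524L23Rik, Ccdc22 and Ppp1r3f, so its counts are less certain. Gata3, the factor of type 2 helper T cells and group 2 innate lymphoid cells, was at 0.598, 0.922, 0.916 and 1.17 CPM across the wild types, against 1.21, 0.885, 1.56 and 1.27 CPM across the knockouts. Eomes, a factor of NK and memory CD8 T cells, was at 0.0825, 0.118, 0.448 and 0.545 CPM across the wild types, against 0.0594, 0.268, 0.526 and 0.573 CPM across the knockouts. Tbx21, which encodes T-bet, the factor of interferon gamma production, was at 0.681, 1.45, 0.682 and 0.775 CPM across the wild types, against 0.693, 0.885, 1.33 and 1.58 CPM across the knockouts. Eomes, like Ncr1, Klrb1c and Klrd1, had its lowest 3 values in wild-type libraries 1 and 2 and knockout library 1, while Tbx21 was high in wild-type library 2, where most other members were low. The log2 fold changes were 0.51 (SE 0.58), 0.45 (SE 0.31), 0.25 (SE 0.77) and 0.32 (SE 0.39) for Foxp3, Gata3, Eomes and Tbx21.

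The 8 mice differed widely in these genes. Over all 8 libraries, the highest was at least 5 times the lowest or the lowest was at 0 for 22 of the 31 members, and the ratio was under 3 for 7 members. Within a genotype, the same fold was reached by 17 of 31 members among the knockouts and by 8 of 31 among the wild types. Counting error widens such a ratio where the lowest library held few counts, as with 3 counts for Cd8a, Cd8b1 and Eomes. The share of all tested genes that reached this fold was not computed. Knockout library 4 was the highest of the 8 libraries for 19 members and among the top 2 for 27. Wild-type library 2 was the lowest for 13 members and knockout library 1 for 9, and these libraries were among the bottom 2 for 21 and 17 members. No member was highest in wild-type library 1, wild-type library 2 or knockout library 2.

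**Figure D3:**
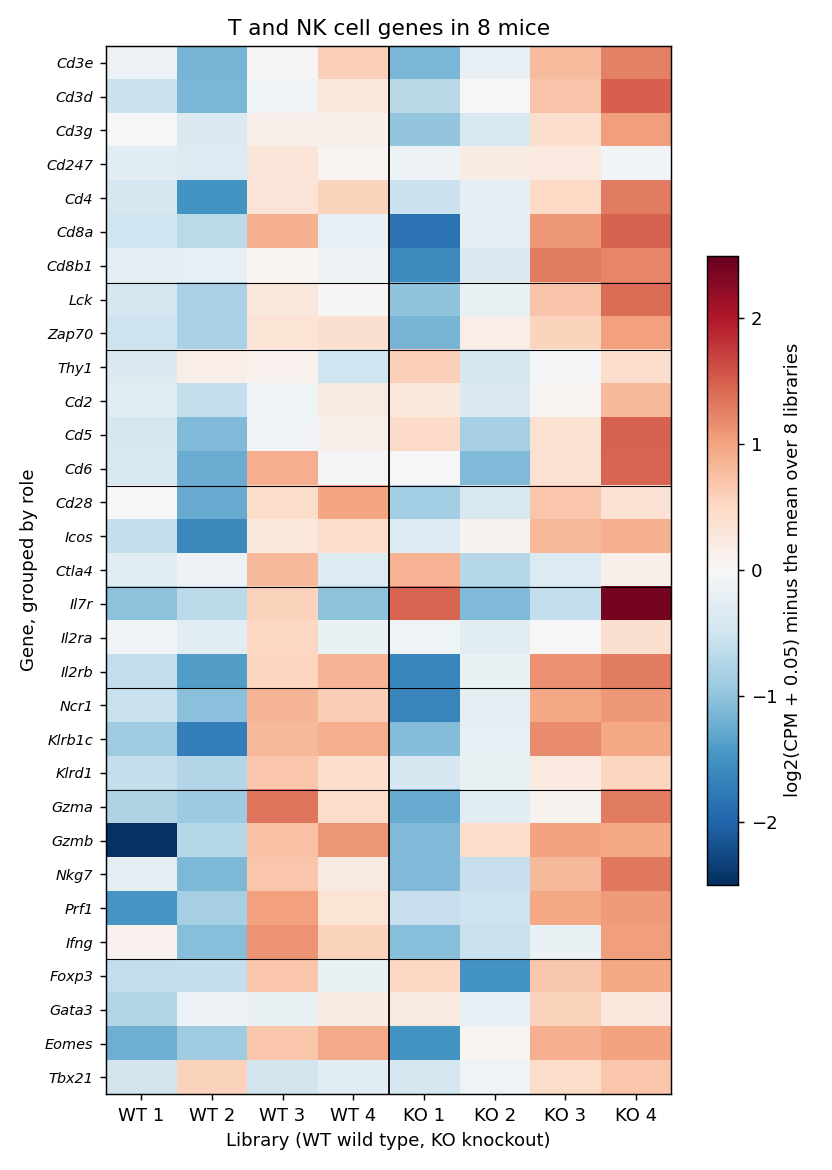
Each row is a member, grouped by role from the receptor complex at the top to transcription factors at the bottom, and each column a library. Colour gives log2(CPM + 0.05) minus its mean over the 8 libraries for that gene, red higher and blue lower. Knockout library 4 is red in nearly all rows, wild-type library 2 blue in most, and knockout library 1 blue except for Il7r, Ctla4, Thy1, Cd5, Foxp3 and a few paler rows.

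Knockout library 1 separated the members. It ranked 6th to 8th of the 8 libraries for 22 members, among them all CD3 chains, both CD8 chains, Lck, Zap70, Il2rb, the NK receptors and the granzymes. For the other 9 members, Thy1, Cd2, Cd5, Cd6, Ctla4, Il7r, Il2ra, Foxp3 and Gata3, it ranked 5th or higher. The contrast within that mouse was wide: relative to knockout library 3, Il7r was 4.24 times as high and Ctla4 2.58 times as high, while Cd3e was at 0.235 times, Ncr1 at 0.115 times and Cd8a at 0.0762 times the level. Knockout library 4 exceeded knockout library 3 by 8.16 times in Il7r and by 1.40 times in Cd3e. This division of the members was made after their values were seen and has no test.

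Macrophage and mesothelial genes also differed between these mice. The macrophage markers, 11 genes in the files, summed to 459, 534, 1394 and 1111 CPM for wild types 1 to 4, against 1321, 623, 735 and 2237 CPM for knockouts 1 to 4, and 10 of 11 had a log2 fold change above 0 with none called. Cd68, a macrophage lysosomal protein, was at 13.5, 23.1, 64.7 and 37.9 CPM across the wild types, against 76.5, 24.4, 26.2 and 134 CPM across the knockouts, with knockout libraries 4 and 1 and wild-type library 3 highest. These were the top 3 libraries of Il7r, and of 5 of the 11 macrophage markers, Emr1, Cd68, Lyz2, Itgax and Fcgr1, a likeness noticed after the values were seen. Knockout library 4 was the highest for 10 of 11. Other markers ranked wild-type library 4 above knockout library 1, as for the complement gene C1qa at 177 CPM in the former and 144 CPM in the latter. Mertk, a receptor for the uptake of dead cells, had a log2 fold change of -0.32 (SE 0.21) and was not highest in knockout library 4. Itgax, which encodes CD11c, was at 11.04, 14.6, 32.4 and 14.6 CPM across the wild types, against 57.5, 12.5, 12.02 and 115 CPM across the knockouts. The 5 mesothelial markers summed to 585, 908, 246 and 168 CPM across the wild types, against 798, 170, 104 and 358 CPM across the knockouts, all 5 with a log2 fold change below 0 and none called. Their sums were highest in wild-type library 2, knockout library 1 and wild-type library 1, and wild-type library 2 and knockout library 1 also had the lowest Cd3e. The part of macrophages and mesothelium in the levels of the T and NK cell genes was not tested.

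**Figure D4:**
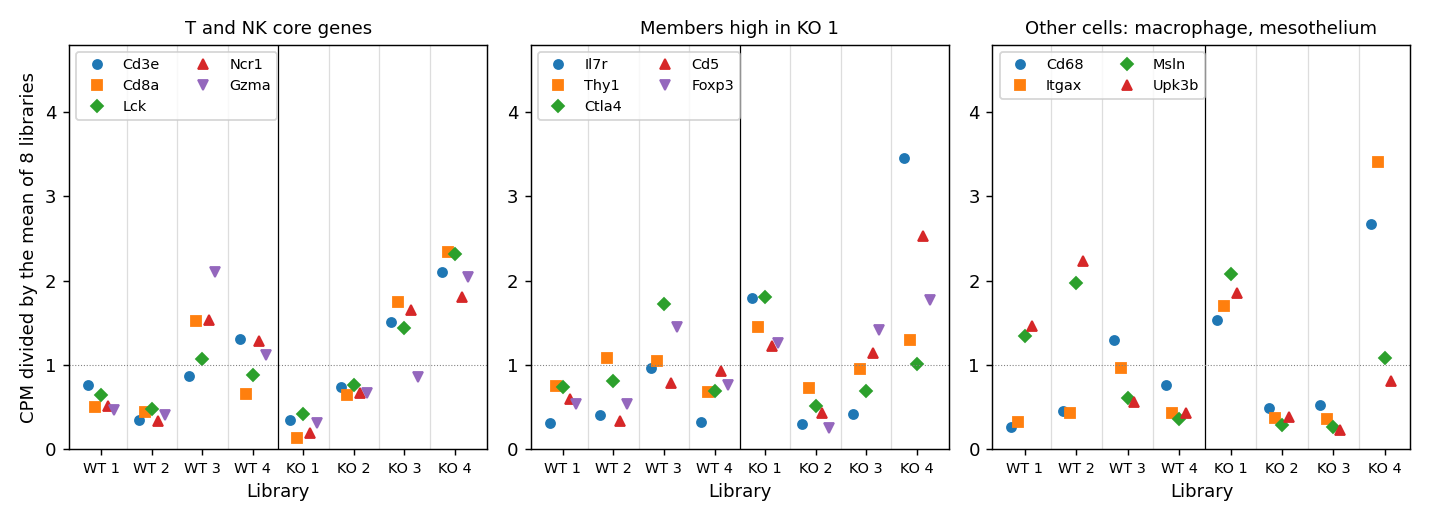
CPM divided by the mean of the 8 libraries (vertical axis) for each library (horizontal axis), with 5 T and NK cell genes on the left, 5 members that were above their own mean in knockout library 1 in the middle, and macrophage and mesothelial genes on the right. The left-hand genes are lowest in knockout library 1 and wild-type library 2, whereas Il7r peaks in knockout libraries 4 and 1 as Cd68 and Itgax do.

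Other marker sums resembled the members in some lists and not in others. B and plasma cell markers, 8 genes in the files, summed to 26.4, 5.61, 7.42 and 41.8 CPM across the wild types, against 7.58, 13.3, 43.6 and 14.6 CPM across the knockouts, and were highest in knockout library 3, wild-type library 4 and wild-type library 1. The 6 markers of group 2 innate lymphoid cells summed to 9.16, 7.59, 12.8 and 10.5 CPM across the wild types, against 11.5, 7.02, 14 and 15.7 CPM across the knockouts. These sums were highest in knockout libraries 4 and 3 and wild-type library 3, as many members were. Most of each sum came from Il1rl1 and Rora. Il1rl1 was highest in the same libraries, at 10.8, 8.74 and 8.73 CPM. Rora was instead highest in wild-type libraries 1 and 2, at 4.46 and 3.86 CPM. Klrg1 was also listed among the other T and NK cell genes described below. The defining cytokines Il5 and Il13 were near 0, at 0.168 CPM or less in every library. The 5 neutrophil markers in the files summed to 2.23, 3.98, 10.9 and 7.67 CPM across the wild types, against 7.24, 6.28, 2.32 and 14.4 CPM across the knockouts, highest in knockout library 4. Most of each sum came from S100a8 and Csf3r. Outside knockout library 4, S100a9, Retnlg and Cxcr2 were each at 0.588 CPM or less. In that library S100a9 was at 4.46 CPM, Retnlg at 0.532 CPM and Cxcr2 at 0.164 CPM. The 6 dendritic cell markers summed to 17.02, 15.8, 34.4 and 23.1 CPM across the wild types, against 12.8, 15.2, 16.6 and 23.96 CPM across the knockouts, lowest in knockout library 1 and highest in wild-type library 3. Most of each sum came from Zbtb46, at 6.69 to 10.1 CPM, and Cd209a, at 0.186 to 16.7 CPM. Cd209a, Flt3 and Clec9a were highest in wild-type library 3, whereas Zbtb46, Xcr1 and Itgae were not. The part of B and plasma cells, innate lymphoid cells, neutrophils and dendritic cells in the levels of the members was not tested. Mast cell markers, 6 genes, summed to 26.99, 12.8, 51.9 and 37.6 CPM across the wild types, against 20.2, 25.9, 19.8 and 23.5 CPM across the knockouts. Kit, at 10.69 to 25.52 CPM over the libraries, made up a large part of each sum. Mcpt4 was at 0.908, 0.628, 7.50 and 5.59 CPM across the wild types, against 1.48, 2.84, 0.800 and 2.13 CPM across the knockouts. Cpa3, Cma1 and Tpsb2 were also highest in wild-type libraries 3 and 4, whereas Ms4a2 was at 0.314 CPM or less throughout. The 6 adipocyte markers summed to 40379, 30552, 27839 and 34428 CPM across the wild types, against 38234, 25640, 37363 and 30816 CPM across the knockouts, highest in wild-type library 1 and lowest in knockout library 2.

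Of 60 other T and NK cell genes, 49 were tested, 43 with a log2 fold change above 0 and 6 below, with a median of 0.35, and 0 passed in edgeR in either direction, with 0 at an unadjusted p under 0.05. Over all tested genes, 53.1% were above 0, 0.0138% passed and 2.23% had an unadjusted edgeR p under 0.05. The 0 of 49 does not stand apart from the last 2 shares. Among the listed genes with the smallest p were Stat4, Cd96 and Cd44. Stat4, which transmits interleukin 12 signals, was at 0.681, 0.667, 1.44 and 1.01 CPM across the wild types, against 0.851, 5.68, 1.41 and 1.17 CPM across the knockouts. Its high value lay in knockout library 2, the library richest in epithelial genes, and not in the mice that were high in CD3 chains. Cd44, an adhesion receptor of activated T cells and many other cells, was at 28.99, 39.6, 43.02 and 22.04 CPM across the wild types, against 69.8, 26.3, 32.4 and 103 CPM across the knockouts. It was highest in knockout library 4, then in knockout library 1, as Il7r was. Cd96, a receptor of T and NK cells, was at 0.178 ± 0.0816 CPM across the wild types, against 0.360 ± 0.194 CPM across the knockouts (SD, n = 4 each).

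Ligands and partner signals of T and NK cells showed no called change either. Of 32 listed genes 30 were in the files and 21 tested, 14 with a log2 fold change above 0 and 7 below, with a median of 0.14, and 0 passed in edgeR, with 0 at an unadjusted p under 0.05. The shares over all tested genes were 53.1% above 0, 0.0138% passing and 2.23% at an unadjusted edgeR p under 0.05. H2-K1, a class I molecule that presents peptides to CD8 T cells, was at 1113 ± 109 CPM across the wild types, against 1385 ± 323 CPM across the knockouts (SD, n = 4 each), and H2-D1 at 1456 ± 113 CPM against 1725 ± 427 CPM. Class I genes form a family of near-identical copies, so their counts are uncertain. H2-Ab1, a class II chain that presents to CD4 T cells, was at 298 ± 136 CPM against 411 ± 182 CPM, and Cd48, the ligand of the receptors CD2 and 2B4, at 8.85 ± 3.99 CPM against 12.99 ± 8.09 CPM. Their log2 fold changes were 0.32 (SE 0.18), 0.24 (SE 0.20), 0.46 (SE 0.38) and 0.55 (SE 0.46) for H2-K1, H2-D1, H2-Ab1 and Cd48.

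Ratios of counts within a library do not depend on how the library was scaled, and 6 ratios to Cd3e were tested between genotypes with an exact permutation test (two-sided), which has 70 arrangements of the mice and cannot give a p below 0.0286. The log2 ratio of Cd3d to Cd3e was -0.08 ± 0.21 in wild type and 0.34 ± 0.24 in knockout (SD, n = 4 each, exact permutation p = 0.0571, Benjamini-Hochberg adjusted over the 6 ratios p = 0.343). For Cd8a to Cd3e the log2 ratio was -1.09 ± 0.81 and -1.26 ± 0.67 (exact permutation p = 0.771, adjusted p = 0.926), and for Cd4 to Cd3e it was 0.42 ± 0.29 and 0.60 ± 0.41 (exact permutation p = 0.486, adjusted p = 0.926). Foxp3 to Cd3e gave -0.60 ± 0.76 and -0.63 ± 1.36 (exact permutation p = 1, adjusted p = 1), where knockout library 1, at 1.18, was the highest of all and knockout library 2, at -2.12, the lowest. Klrd1 to Cd3e gave 0.55 ± 0.53 and 0.29 ± 0.70 (exact permutation p = 0.629, adjusted p = 0.926), and Gzma to Cd3e 0.55 ± 0.84 and 0.13 ± 0.34 (exact permutation p = 0.429, adjusted p = 0.926). None of the 6 ratios passed an adjusted p of 0.05. A single ratio at the smallest possible p would not have passed either after adjustment over the 6. No conclusion is therefore drawn from this outcome.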

How the data were processed

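The authors deposited 1 table per mouse of whole-number read counts per gene symbol, which carry no normalization judging by their values. Per the submitters' processing notes the tools included STAR 2.4.0g1 and featureCounts, beside FastQC 0.11.2, Cufflinks and edgeR, with the mm10 build; no strand setting was found there. Exon lengths, positions and shared exonic bases came from the authors' deposited merged annotation. Promoter sequences came from RefSeq, and exons within them from GENCODE, both of the same build.

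Groups were taken from the labels. Genes were filtered with filterByExpr, leaving 14493 of 23212, scaled by TMM and compared with edgeR 4.0.16 (R 4.3.3, quasi-likelihood F test, robust dispersion, no covariate), with p-values adjusted by Benjamini-Hochberg over all tested genes and a threshold of 0.05. DESeq2 1.42.0 and limma 3.58.1 (voom) were alternatives. Each SE was the log2 fold change divided by the square root of F. The procedure was tested on simulated data, with changes planted only in genes above a minimum mean level. Members such as Cd8a, Ncr1 and Prf1 lie below that level, so the simulation does not bear on changes in them. No 2 libraries of a genotype agreed within sampling noise (smallest chi-square per degree of freedom 65.9). Each library came from its own mouse, per the labels and design text. Poisson intervals and floors cover counting error only.

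The members and lists were chosen with earlier results of these data known. Members with a mean of at least 0.2 CPM, 30 of 31, are given in every library, together with up to 4 genes with the smallest p of each other list. The targeted gene and a gene of the other lists are not reported here.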

Additional observations from a re-analysis of the deposited data

Results flagged for a closer look

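Each of the 31 members was examined in each genotype, 62 groups of 4 libraries in all, for a library far from the other 3. This was seen in 1 group, where chance alone gives about 3.1. Wild-type library 2 held Tbx21, which encodes T-bet, at 1.45 CPM, while the range over the remaining wild types was 0.681 to 0.775 CPM.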

How the results depend on the processing

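For the T and NK cell genes, 0 members passed the threshold in edgeR, in DESeq2, in limma voom, without a low-count filter and with the replicate block. In DESeq2 some members had no adjusted p and could not be called. Over all genes, where edgeR called 2, the count was 0 without a low-count filter, 0 with scaling by total counts, 17 in DESeq2, 0 in limma voom, 0 with each single library left out and 0 once both wild-type library 3 and knockout library 2 were left out. The median log2 fold change of the tested members was 0.738 without that pair, whose separation was known from an earlier look at these data, and 0.075 to 0.623 with single libraries left out. Without that pair the log2 fold change was 0.019 for Cd28, 0.279 for Il2ra and 0.684 for Gzma, and the difference in log2 ratio to Cd3e was 0.097 for Cd8a and 0.703 for Foxp3. Il2ra was at 0.011 with scaling by total counts, Ctla4 at -0.030 in limma voom and Klrd1 at -0.000 without a filter. With single libraries left out, the log2 fold change ran from -0.203 to 0.514 for Cd3g, -0.154 to 0.980 for Cd6, -0.500 to 0.188 for Cd28, -0.417 to 0.425 for Ctla4, -0.178 to 0.187 for Il2ra, -0.148 to 0.597 for Ncr1, -0.025 to 0.723 for Klrb1c, -0.197 to 0.299 for Klrd1, -0.750 to 0.544 for Gzma, -0.023 to 0.977 for Gzmb, -0.106 to 0.719 for Nkg7 and -0.088 to 0.707 for Eomes. The ratio differences ran from -0.462 to 0.156 for Cd8a, -0.008 to 0.317 for Cd4 and -0.631 to 0.469 for Foxp3. The cause of these turns was not tested.

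With the replicate number as a block (replicate block), edgeR called 0 genes and Ctla4 was at -0.022. Same-numbered libraries correlated in their deviations from the group means at 0.117, -0.015, -0.320 and -0.017, and no library correlated best with its own number. These values gave no sign of a pairing by number, but they cannot exclude another link between mice.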

Other observations

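A few genes outside the naming rule were chosen after their values were seen. Ccl5, a chemokine of T and NK cells and of activated macrophages, was at 1.82, 1.18, 5.30 and 4.73 CPM for wild types 1 to 4, against 1.82, 2.10, 3.96 and 10.3 CPM for knockouts 1 to 4, highest in knockout library 4 as most members were. Klrk1, the activating receptor NKG2D, was at 1.57, 0.804, 2.69 and 2.35 CPM across the wild types, against 1.07, 1.48, 2.27 and 2.93 CPM across the knockouts, with the lowest values in wild-type library 2 and knockout library 1. Cxcl9, a chemokine induced by interferon gamma that attracts T cells, was at 58.3, 28.3, 42.3 and 49.5 CPM across the wild types, against 40.7, 37.5, 46.05 and 42.3 CPM across the knockouts, although Ifng itself had at most 9 counts in any library. Il7, the ligand of the receptor chain encoded by Il7r, was at 6.60, 9, 4.99 and 4.99 CPM across the wild types, against 8.25, 5.52, 3.37 and 6.24 CPM across the knockouts, highest in wild-type library 2 and knockout library 1. Il2 had at most 2 counts in any library.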
